A study of Glycine max with 12 samples.

Results

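Gene expression in young soybean leaves of the 2011 season was set against that of the 2010 season, 4 RNA-seq libraries from each year out of the 12 libraries of a 4-season field study of weeds. The 8 libraries were those whose labels carry the sampling dates of June 29 in 2011 and June 22 in 2010, and each gene's season difference was adjusted for treatment and row spacing. Leaves of cultivar AG1631 were taken at the V3 stage in 1 field near Brookings, and for each plot the youngest unfolded trifoliates (below 2 cm) of at least 8 plants were pooled into 1 library. In 2011 the 2 weedy plots carried naturally occurring velvetleaf and weedy common sunflower at about 160 plants per m2, and the 2 control plots received glyphosate, s-metolachlor, sethoxydim and imazethapyr. In 2010 the 2 weedy plots carried flax at about 600 plants per m2, and the 2 control plots received glyphosate. In both seasons replicate 1 stood in rows 76 cm apart and replicate 2 in rows 18 cm apart. Precipitation summed to 24.2 cm by sampling in 2011 and to 19.4 cm in 2010, and the temperature at sampling was 26.1 °C in 2011 and 25.6 °C in 2010. Season, date, weather, weed species, weed density and herbicide changed together between these groups, so their parts in a difference cannot be told apart. The same holds for anything else that may have changed with the year, such as the seed lot. Plots of 1 year are replicates of that year at 1 site, and the p-values measure the spread between plots.

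A young legume leaflet passes, within days, from cell division to expansion and the assembly of chloroplasts. Dividing cells make ribosomes and histones at a high rate and express growth-regulating factors (GRF), AINTEGUMENTA-like factors and YABBY factors, which promote cell proliferation or set the upper and lower leaf faces. Expanding cells loosen their walls with expansins and xyloglucan enzymes and fill their plastids with antenna proteins, Rubisco and the enzymes of the Calvin cycle, which fixes carbon dioxide. Small heat shock proteins hold unfolding proteins in the cytosol and organelles when leaves warm up, while calreticulin, calnexin and BiP fold proteins in the endoplasmic reticulum. In bulk leaf RNA, a change in the share of a cell type or stage and a change within its cells cannot be told apart.

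All values are the deposited log2 FPKM, on which 1 unit is a doubling. Every library carried the same set of sorted values, with a median of 3.22, so a level is relative to the other genes of its library and a change shared by most genes would not be visible. Read totals are not part of the table, so the depth is unknown. The label of weedy replicate 2 of 2011 states that its second read file was corrupt. Of the markers of the labelled tissue, 10 genes for Rubisco small subunit and antenna proteins were tested, and their summed linear values lay between 1.67e+04 and 2.90e+04 in 2011 and between 7.81e+03 and 1.62e+04 in 2010. As markers of other tissue, 12 secondary wall cellulose synthases of stem and petiole summed to between 78.5 and 207 in 2011 and between 103 and 153 in 2010, and the 2 KNOX genes of the shoot meristem that were tested summed to between 3.34 and 5.03 in 2011 and between 2.74 and 5.23 in 2010. Neither KNOX gene passed the test, 6 of the 12 cellulose synthases were called higher in 2011 and none lower (5 were lower without control replicate 2 of 2010 and 3 without control replicate 2 of 2011), and the part of other tissue in the results was not tested.

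Season accounted for 58.6% of the variance among the 8 libraries over the 30318 genes tested, against 7.37% for treatment, 7.73% for row spacing and 11% for the interaction of season with treatment. On the first principal component, which held 63% of the variance, the 2011 libraries lay between 26.8 and 66 and the 2010 libraries between -69.3 and -35. Weedy replicate 2 of 2010 stood apart from the other libraries of its season, at -69.3 on the first component and -43.8 on the second, where the other 3 libraries of 2010 lay between 18.3 and 25.5. At an adjusted p under 0.05 (limma, Benjamini-Hochberg, two-sided), 10946 of 30318 genes differed between the seasons (36.1%), 5345 higher in 2011 (17.6%) and 5601 lower (18.5%). The median absolute difference of these genes was 0.60, and 968 of the higher genes (3.19% of those tested) and 792 of the lower ones (2.61%) differed by at least 1. Leaving out weedy replicate 1 of 2011 cut the total to 5432. Fits that dropped weedy replicate 1 of 2010, weedy replicate 2 of 2011 or control replicate 1 of 2011 called 6458, 6496 and 7279 genes. A call in all 8 fits that each left out a library was reached by 2405 higher and 2424 lower genes. Treatment and row spacing gave 0 calls each in the same limma fit, with 1730 and 1702 genes at an unadjusted p under 0.05.

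**Figure D1:**
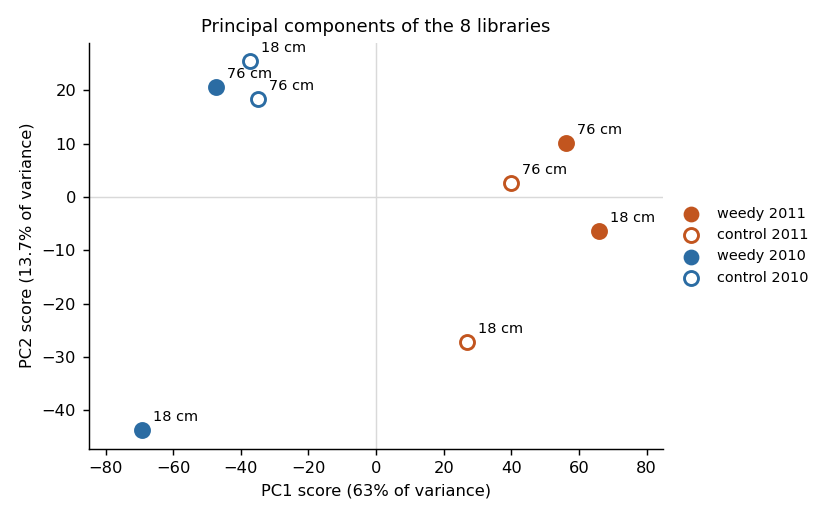
The first principal component (horizontal axis) and the second (vertical axis) of the 8 libraries, with colour for season, filled points for weedy and open points for control plots, and the row spacing printed beside each point. The 4 libraries of 2011 lie right of 0 and the 4 of 2010 left of it, with weedy replicate 2 of 2010 at the lower left.

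The largest rise belonged to Glyma02g03250, annotated as a matrixin, a family of secreted metalloproteases. Its log2 levels were 10.51 and 10.16 in weedy and 10.44 and 10.10 in control libraries of 2011, against 2.27 and 1.37 in weedy and 1.94 and 2.15 in control libraries of 2010 (replicates 1 and 2 in each case). The season difference was 8.36 (SE 0.18, adjusted p = 3.56e-06), and the libraries of 2009 resembled 2011, at 10.89 and 10.51, while those of 2008 were at 1.11 and 1.01. A second matrixin gene, Glyma02g03290, ran the same course at a lower level, with a mean of 6.71 ± 0.22 in 2011 and 2.95 ± 0.55 in 2010 (SD, n = 4 libraries a season throughout). Glyma02g03280, an unannotated gene numbered between them, went the other way: 2.08 ± 0.32 in 2011 and 7.46 ± 0.19 in 2010, a difference of -5.38 (SE 0.12, adjusted p = 3.56e-06).

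Copper/zinc superoxide dismutase CSD1 (Glyma03g40280), which turns superoxide into hydrogen peroxide in the cytosol, had log2 levels of 7.85 and 8.09 in weedy and 8.31 and 8.79 in control libraries of 2011, against 4.20 and 4.41 in weedy and 4.60 and 4.54 in control libraries of 2010. The groups were separated by more than 3 units, and the difference was 3.82 (SE 0.13, adjusted p = 2.52e-05). Only 1 of the 2 tested copies of CSD1 was called, and the other copy differed by 0.04. Glyma01g34300, without annotation, averaged 6.96 ± 0.26 in 2011 and 1.85 ± 0.93 in 2010, and the granulin-type cysteine protease Glyma14g09420 averaged 6.04 ± 0.64 in 2011 and 1.29 ± 0.65 in 2010. Also among the 12 largest rises stood 2 genes annotated as peroxidases, Glyma13g04410 (5.23 ± 0.97 in 2011 and 1.40 ± 0.43 in 2010) and Glyma15g13560 (a difference of 3.35, SE 0.18, adjusted p = 0.000164).

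Glyma12g18710, a small nuclear ribonucleoprotein gene of the splicing machinery, showed the largest fall. Its log2 levels were 0.17 and 0.02 in weedy and 0.13 and 1.13 in control libraries of 2011, against 8.34 and 8.57 in weedy and 8.25 and 8.37 in control libraries of 2010, a difference of -8.02 (SE 0.22, adjusted p = 8.42e-06). Among the 12 largest falls, 3 were small heat shock proteins: Glyma08g07340 (1.53 ± 1.34 in 2011 and 6.43 ± 1.08 in 2010), Glyma08g07330 and Glyma07g32110. Another, Glyma03g12150, is annotated as a partner of a gamma-tubulin complex protein, which nucleates microtubules, and averaged 0.08 ± 0.14 in 2011 and 4.80 ± 0.19 in 2010.

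Some genes were close to absent in 1 season. By a rule chosen after the values had been seen, 38 genes left a gap of at least 2 log2 units between the nearest libraries of the seasons, 23 with 2011 above and 15 with 2011 below. A further condition, a mean under 1.5 in the lower season, was met by 18 of them, 6 higher and 12 lower in 2011. Glyma04g16400 was at 0.00 in all 4 libraries of 2011, against 3.70 and 3.58 in weedy and 3.56 and 3.59 in control libraries of 2010. Glyma03g11670, Glyma03g12150, Glyma11g21310 and Glyma04g16400 shared a course over the other seasons: in 2009 the weedy library held 1.70, 2.24, 2.22 and 1.07 and the control library 0.04, 0.05, 0.39 and 0.04, and in 2008 both libraries lay between 3.23 and 4.36. Other genes were near 0 in 2011 alone of the 4 seasons. Glyma03g13810, an RNA-binding protein gene, lay between 0.00 and 0.12 in 2011, against 2.71 to 3.04 in 2010 and 2.12 to 2.72 in 2008 and 2009. The clathrin light chain gene Glyma01g28550, for a coat protein of vesicles, lay between 0.00 and 0.06 in 2011, against 2.23 to 2.59 in 2010.

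Genes with close numbers were found among these 38, as with the matrixins above. Glyma18g02580 (an amino acid transporter), Glyma18g02590 (an alpha-SNAP, which recycles vesicle fusion complexes) and Glyma18g02610 (annotated SAG20) averaged 6.16 ± 0.10, 9.28 ± 0.16 and 6.45 ± 0.24 in 2011, against 2.91 ± 0.32, 6.08 ± 0.12 and 3.59 ± 0.17 in 2010. The differences were 3.26, 3.20 and 2.86, with adjusted p of 5.74e-05, 4.57e-05 and 7.93e-05. In 2009 the 3 genes were near or above the 2011 levels, at 6.22 to 6.55, 8.89 to 9.19 and 7.12 to 8.85. In 2008 they lay between 2.72 and 2.78, 5.20 and 5.35, and 3.31 and 4.27. These genes were named after their values had been seen.

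**Figure D2:**
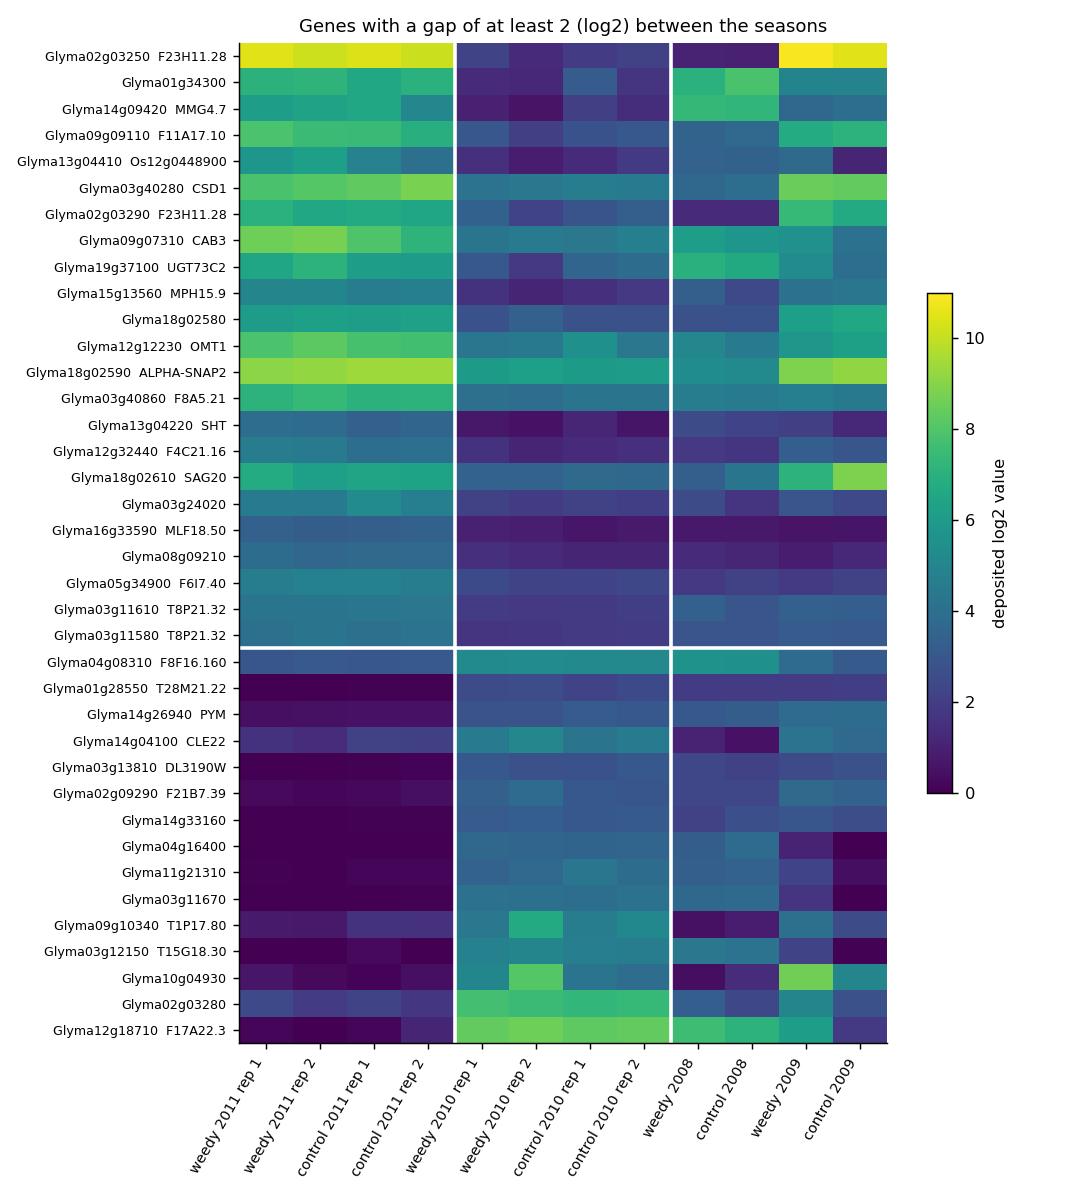
Deposited log2 values (colour) of the 38 genes with a gap of at least 2 between the seasons, 1 gene a row, with the libraries of 2011, of 2010 and of 2008 and 2009 in 3 blocks of columns. The 23 upper rows are higher in every library of 2011 than in any of 2010, and the 15 lower rows are lower. Of the upper rows, 14 have the weedy library of 2009 nearer to 2011 than to 2010, and 7 the weedy library of 2008.

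Genes of photosynthesis were higher in 2011. Of 32 Calvin cycle genes 26 were called higher and none lower, with a median difference of 1.12, and of 134 genes for light harvesting and the photosystems 64 were called higher and 3 lower, with a median of 0.63. Over all genes tested the median was -0.02 and the share called higher was 17.6%. Chlorophyll synthesis had 15 of 32 genes higher and none lower, with a median of 0.61. The counts moved with single libraries. Without weedy replicate 1 of 2011 the higher counts were 10 for the Calvin cycle, 17 for light harvesting and 5 for chlorophyll. Without weedy replicate 1 of 2010 they were 10, 22 and 6. For light harvesting the count was also 28 without weedy replicate 2 of 2011, 30 without control replicate 1 of 2011, 35 without weedy replicate 2 of 2010 and 40 without control replicate 1 of 2010. For chlorophyll it was 9 without any one of those 4 libraries and 23 without control replicate 2 of 2011.

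The antenna gene CAB3 (Glyma09g07310), whose product binds chlorophyll in photosystem II, had log2 levels of 8.59 and 8.73 in weedy and 7.97 and 7.16 in control libraries of 2011, against 4.29 and 4.52 in weedy and 4.36 and 4.76 in control libraries of 2010. The lowest 2011 library was thus above the highest 2010 library, and the difference was 3.63 (SE 0.31, adjusted p = 0.000973). LHB1B1 (Glyma16g28070), another antenna gene, averaged 9.01 ± 0.84 in 2011 and 6.72 ± 0.29 in 2010. Carbonic anhydrase CA1, which supplies carbon dioxide and bicarbonate inside the chloroplast, had 2 copies called higher. Copy Glyma05g08590 stood at 7.89 and 9.26 in weedy and 6.87 and 6.42 in control libraries of 2011, against 3.57 and 4.32 in weedy and 3.91 and 4.67 in control libraries of 2010, a difference of 3.49 (SE 0.50, adjusted p = 0.00420). Copy Glyma19g01050 averaged 8.99 ± 0.86 in 2011 and 6.01 ± 0.46 in 2010. In the chlorophyll pathway, all 3 genes for subunit H of magnesium chelatase, which puts magnesium into the porphyrin ring, were called higher. Glyma10g20570 rose most, by 1.69 (SE 0.29, adjusted p = 0.00695). The 4 copies of PSBP-1, an extrinsic protein of photosystem II, rose by 0.79 to 0.99. The 3 genes called lower were 2 with the names of plastid-encoded psbA and psbK and a copy of LHCB6, and the psbA and LHCB6 genes lost the call in several fits that left out a library.

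Ribosomal protein genes of the plastid list and the other ribosomal protein genes had different directions. Of 78 genes for ribosomal proteins of the plastid 34 were called higher in 2011 and 2 lower, with a median difference of 0.65, whereas of 467 other genes described as ribosomal proteins 354 were called lower and 6 higher, with a median of -0.68. The second set is what the plastid list left: it still held 2 genes named rpl2 after the plastid-encoded protein, neither of them called, and 4 of its 6 higher genes were copies of AT1G68660, an adaptor (ClpS) of the Clp protease and not a ribosomal protein. Of the plastid set 43.6% was thus called higher, against 17.6% of all genes tested, and of the other set 75.8% was called lower, against 18.5%. These sets were formed after a first count of all ribosomal proteins had been seen. The count of lower genes in the second set was 199 without weedy replicate 1 of 2011, and 172 genes were called in all 8 fits that left out a library. The plastid count rested more on the full set of libraries: it was 3 without weedy replicate 1 of either season, 6 without control replicate 1 of 2011, 8 without weedy replicate 2 of 2011 or control replicate 1 of 2010, 12 without weedy replicate 2 of 2010 and 65 without control replicate 2 of 2010.

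The largest rise of the plastid set was that of Glyma09g09110, a protein of the L18 family, at 7.87 and 7.50 in weedy and 7.45 and 6.89 in control libraries of 2011, against 3.0 and 2.10 in weedy and 2.78 and 3.02 in control libraries of 2010. Its difference of 4.70 (SE 0.24, adjusted p = 0.00013) stood far above the median of its set. In the other set, Glyma05g07620, described as of the L7Ae/L30e/S12e/Gadd45 family, averaged 4.03 ± 0.29 in 2011 and 5.68 ± 0.28 in 2010. That description is not limited to proteins of the ribosome. L39 (Glyma04g06700) was abundant, at 11.13 and 9.95 in weedy and 10.89 and 10.32 in control libraries of 2011, against 12.69 and 10.94 in weedy and 12.69 and 11.77 in control libraries of 2010. Its groups overlapped, since replicates 1 were high in both seasons, and the adjusted difference was -1.45 (SE 0.22, adjusted p = 0.00513). Near-identical copies are common among ribosomal proteins, and how shared reads were split between them is not stated. All 4 copies of fibrillarin FIB2, which modifies ribosomal RNA in the nucleolus, fell by 1.31 to 1.79.

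Regulators of leaf development, promoters of cell proliferation among them, were more often lower than higher in 2011. Of 20 GRF genes 18 were called lower and none higher, with a median difference of -1.05, and of 73 regulators of leaf development, a list that includes the GRF, YABBY and TCP families, 44 were called lower and 1 higher, with a median of -0.52. Without weedy replicate 1 of 2010 the lower counts were 10 and 27, and without weedy replicate 1 of 2011 they were 10 and 26. GRF7 (Glyma06g13960) had log2 levels of 1.77 and 1.71 in weedy and 2.23 and 2.22 in control libraries of 2011, against 3.72 and 4.18 in weedy and 3.29 and 3.51 in control libraries of 2010, a difference of -1.69 (SE 0.22, adjusted p = 0.00343). GRF9 (Glyma01g34650) averaged 1.19 ± 0.43 in 2011 and 2.82 ± 0.25 in 2010. All 8 copies of GRF5 fell, by 0.49 to 1.59. All 7 copies of AINTEGUMENTA (ANT), which prolongs cell division in organs, fell as well, by 0.58 to 2.05; the copy Glyma0041s00200 averaged 1.22 ± 0.55 in 2011 and 3.27 ± 0.68 in 2010. The 4 copies of PHABULOSA (PHB), which specifies the upper leaf face, had a median difference of -1.17. The 4 copies of the YABBY gene AFO, a determinant of the lower face, fell by 0.38 to 1.55. Neither copy of REVOLUTA, a relative of PHB, was called. The list does not hold promoters of proliferation only. Of its 19 TCP genes 9 were called lower and none higher, among them 3 of 4 copies each of TCP4 and TCP5. The TCP count was 5 without weedy replicate 1 of 2010 and 4 without that of 2011.

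Histones and cell cycle genes were lower in smaller numbers. Of 66 histone genes 35 were called lower (53.0%) and 1 higher (1.52%), with a median of -0.44, against 18.5% and 17.6% of all genes. The lower count fell to between 13 and 23 without any one library other than weedy replicate 1 of 2011, lowest without control replicate 1 of 2011, and 12 genes were called in all 8 such fits. HTA7 (Glyma19g42240), a histone H2A, had log2 levels of 7.08 and 5.85 in weedy and 5.75 and 5.62 in control libraries of 2011, against 7.47 and 7.59 in weedy and 7.52 and 7.20 in control libraries of 2010. Its groups did not overlap, although weedy replicate 1 of 2011 came close to 2010. Of 161 cyclin and replication genes 47 were called lower (29.2%) and 13 higher, and the lower count was 16 without weedy replicate 1 of 2011, 22 without weedy replicate 2 of 2011, 23 without control replicate 1 of 2011 or weedy replicate 1 of 2010, and 26 without control replicate 1 of 2010. CYCD3;2 (Glyma17g18360), a D-type cyclin that drives entry into the cell cycle, averaged 3.82 ± 0.35 in 2011 and 5.11 ± 0.15 in 2010, a difference of -1.30 (SE 0.18, adjusted p = 0.00395). Another D-type cyclin, CYCD1;1 (Glyma02g03490), moved the other way, by 1.04 (SE 0.11, adjusted p = 0.00224).

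**Figure D3:**
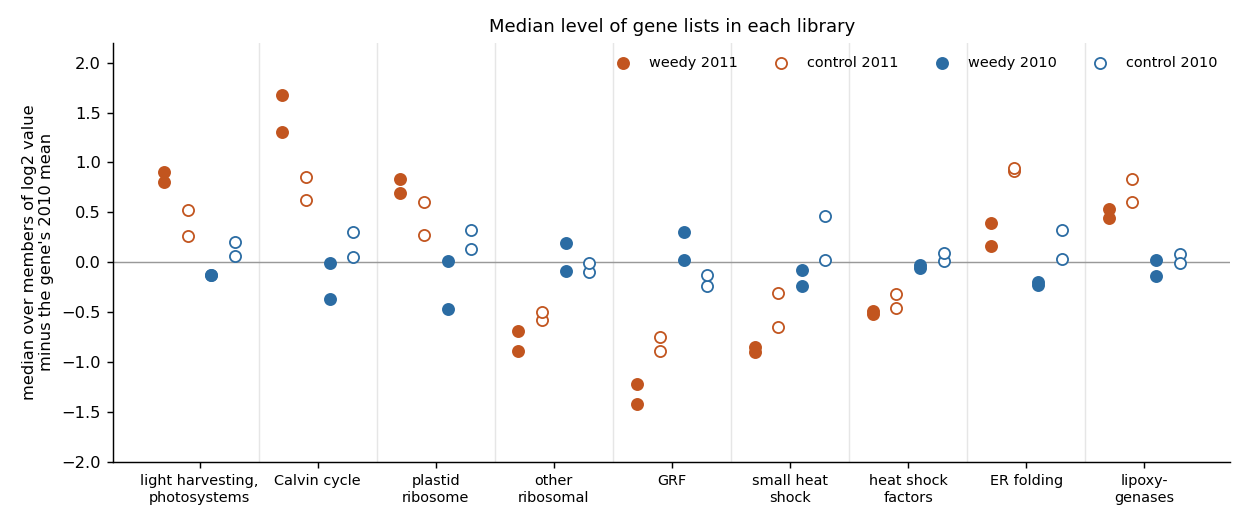
Median over the genes of 9 lists of the log2 value minus the gene's mean in 2010 (vertical axis), 1 point a library, with weedy libraries filled, control libraries open, and 2011 left of 2010 in each list. The 2011 libraries lie above the 2010 libraries for light harvesting, Calvin cycle and lipoxygenases and below them for the other ribosomal proteins, GRF, small heat shock proteins and heat shock factors. For plastid ribosomal proteins and ER folding a 2011 library lies below the highest 2010 library.

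Of 2190 Arabidopsis loci with at least 4 tested soybean copies, 40 had every copy called higher in 2011 and 83 every copy called lower. Loci with a ribosomal description made up 37 of the 83. Their number among all 2190 loci was not counted, so the 37 cannot be set against an expected share. Beyond the loci named already, the lower set held HMGB2 (5 copies, median -0.74) and NRP2 (5 copies, median -0.94), which bind or load chromatin, and KNAT7 (4 copies, median -0.90), a homeobox gene. IAMT1, which methylates auxin, had 4 copies at a median of -1.68. The higher set held the plasma membrane proton pump AHA5 (5 copies, median 1.21) and the xylem cysteine peptidase XCP2 (4 copies, median 1.62). It also held purple acid phosphatase PAP3 (4 copies, median 1.13), arabinogalactan protein AGP14 (4 copies, median 1.42) and a starch phosphorylase of glycosyl transferase family 35 (4 copies, median 1.16).

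Small heat shock proteins and heat shock factors had more lower than higher genes in 2011. The small heat shock list covers the cytosol, the endoplasmic reticulum (HSP22.0), mitochondria and plastids. It also holds relatives that are not small heat shock proteins proper, such as SLT1 (6 copies, 2 higher), RTM2 (4 copies, 1 higher) and AT4G02450 (4 copies, 3 lower). Of the 72 genes of this list 35 were called lower in 2011 (48.6%) and 6 higher (8.33%), against 18.5% and 17.6% of all genes. The list's median difference was -0.72. Of 36 heat shock factors, which switch heat shock genes on, 17 were called lower (47.2%) and 1 higher (2.78%), with a median of -0.53. Both lower counts moved by less than 1.5 times without any one library, to between 31 and 36 and between 12 and 17. By Arabidopsis locus, 11 of 13 copies of AT1G07400, 6 of 7 copies of HSP22.0 and 6 of 6 copies of HSP17.6II were lower, while none of the 3 copies of chloroplast HSP21 was called. Glyma08g07340 had log2 levels of 0.55 and 1.03 in weedy and 3.52 and 1.01 in control libraries of 2011, against 6.54 and 5.03 in weedy and 6.48 and 7.66 in control libraries of 2010, a difference of -4.90 (SE 0.56, adjusted p = 0.00244). HSFA2 (Glyma04g05500), a heat shock factor that is itself heat-induced in Arabidopsis, had 3.96 and 5.19 in weedy and 6.55 and 4.89 in control libraries of 2011, against 6.63 and 7.53 in weedy and 7.96 and 8.23 in control libraries of 2010. In both genes control replicate 1 was the highest library of 2011, and the seasons did not overlap. HSP101 (Glyma06g21910), which pulls apart protein aggregates, averaged 5.03 ± 0.90 in 2011 and 7.35 ± 0.57 in 2010. The co-chaperone BAG5 (Glyma18g52170) averaged 3.24 ± 1.47 in 2011 and 6.43 ± 0.71 in 2010, a difference of -3.19 (SE 0.65, adjusted p = 0.0113). By locus, 1 of 7 copies of HSP70 and 2 of 5 of HSC70-1 were lower, while 2 of 2 copies of HSC70-7 were higher. Among HSP90 genes, 2 of 2 copies of HSP81-2, 1 of 4 of AT5G56000 and 1 of 2 of AT3G07770 were lower. Neither copy of HSP81-1 was called. All 4 copies of HSP60 and 2 of 2 of HSP60-3A were lower. Of 55 genes for HSP70, HSP90, HSP60 and HSP100 proteins 16 were lower (29.1%) and 9 higher (16.4%), against 18.5% and 17.6% of all genes. Their lower count was 5 and 9 without weedy replicates 1 and 2 of 2011. It was 7 without weedy replicate 1 of 2010. Of 197 DnaJ co-chaperones 26 were lower and 33 higher. These shares of 13.2% and 16.8% lay below the 18.5% and 17.6% of all genes. With any one library left out the DnaJ counts were 9 to 22 and 20 to 32, lowest without weedy replicate 1 of 2011.

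Of 37 genes for folding in the endoplasmic reticulum 23 were called higher in 2011 (62.2%) and 2 lower (5.41%), with a median of 0.60. All genes together gave 17.6% and 18.5%. In all 8 fits that left out a library, 18 of the 23 were called. Calreticulin CRT3 (Glyma18g47930), a chaperone of glycoproteins, had log2 levels of 6.46 and 6.53 in weedy and 6.76 and 6.80 in control libraries of 2011, against 5.11 and 4.79 in weedy and 5.53 and 5.26 in control libraries of 2010, a difference of 1.47 (SE 0.11, adjusted p = 0.000727). All 4 copies of CRT3, all 4 of calnexin and all 3 of BIP2 were higher. BIP1 (Glyma05g36620), the HSP70 of this compartment, had 8.61 and 8.26 in weedy and 9.56 and 9.37 in control libraries of 2011, against 7.25 and 7.17 in weedy and 8.43 and 7.82 in control libraries of 2010. Its groups overlapped because control libraries were above weedy ones in both seasons, and within each treatment every 2011 library was above every 2010 library. SHD (Glyma17g37820), the HSP90 of this compartment, averaged 8.87 ± 0.46 in 2011 and 7.67 ± 0.35 in 2010.

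Genes of the circadian clock and flowering gave no common direction, with 13 of 86 genes higher (15.1%), 19 lower (22.1%) and a median of -0.01. Single loci, picked out after their values were seen, are given by the time of day at which their Arabidopsis counterparts peak. Among genes of the morning, 3 of 4 copies of LHY and all 4 copies of AT5G17300, known in Arabidopsis as the LHY relative RVE1, were called lower. Both copies of EPR1 were called lower as well, with differences of -0.98 and -0.58. Not every morning locus shared this direction. Of 3 copies of AT3G09600 (RVE8 in Arabidopsis) 1 was called higher, by 1.36, and none lower. Of 4 copies each of AT3G54500 and AT5G64170, 0 and 1 were lower. Among genes of the day and evening, 2 of 3 copies of GIGANTEA (GI), 2 of 3 of PRR7 and both copies of APRR3 were called higher, while 1 of 4 copies of TOC1 and none of the 6 of APRR5 was. GI (Glyma10g36600) had log2 levels of 5.25 and 5.53 in weedy and 5.58 and 5.52 in control libraries of 2011, against 3.96 and 4.13 in weedy and 4.09 and 4.0 in control libraries of 2010, a difference of 1.42 (SE 0.10, adjusted p = 0.000479). LHY (Glyma03g42260) had 5.16 and 4.90 in weedy and 3.24 and 3.79 in control libraries of 2011, against 5.81 and 5.70 in weedy and 5.45 and 5.30 in control libraries of 2010. It fell by 1.29 (SE 0.25, adjusted p = 0.00990), and the 2011 libraries all lay below those of 2010. The labels state no hour of sampling. The higher count of the list was 5 to 7 without control replicate 1 or weedy replicate 1 of 2010 or without any one of control replicate 1 and weedy replicates 1 and 2 of 2011. The lower count was 9 without weedy replicate 1 of 2011, 11 without control replicate 1 of 2010 and 12 without weedy replicate 2 or control replicate 2 of 2011.

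In the list for jasmonate, a hormone of wound and herbivore responses, more genes were higher in 2011 than lower. Of its 62 genes, which include all lipoxygenases and the JAZ genes, 23 were higher (37.1%) and 2 lower (3.23%), with a median of 0.28. Shares over all genes were 17.6% and 18.5%. Of 26 lipoxygenases, of which some begin jasmonate synthesis and others make other oxylipins, 13 were higher and 1 lower, with a median of 0.43. By locus, 8 of 15 copies of AT1G55020 were higher and 1 lower, and 3 of 4 of AT3G45140 were higher. How many of the higher lipoxygenases serve jasmonate synthesis was not tested. Of 15 JAZ genes 3 were higher and none lower. The higher counts of the whole list and of the lipoxygenases were 19 to 27 and 12 to 16 with any one library left out. For JAZ the count was 1 without weedy replicate 1, weedy replicate 2 or control replicate 2 of 2011. The lipoxygenase Glyma07g03920 had log2 levels of 7.34 and 6.47 in weedy and 7.79 and 7.75 in control libraries of 2011, against 4.37 and 3.47 in weedy and 4.70 and 3.96 in control libraries of 2010, a difference of 3.21 (SE 0.18, adjusted p = 0.000184). A second lipoxygenase, Glyma13g42330, averaged 8.08 ± 0.30 in 2011 and 5.73 ± 0.59 in 2010. Allene oxide cyclase AOC4 (Glyma08g28750), which closes the ring of the jasmonate precursor, averaged 3.28 ± 0.47 in 2011 and 1.00 ± 0.27 in 2010. The 3 copies of JMT, which makes volatile methyl jasmonate, had no common direction: 1 was called higher, by 1.55, and 1 lower, Glyma09g38970, by 1.32 (SE 0.23, adjusted p = 0.00675).

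Among immune receptors of the NBS-LRR class, 48 of 166 genes were higher (28.9%) and 17 lower (10.2%), with a median of 0.13. The higher count was 29 when weedy replicate 1 of 2011 was dropped and 30 when weedy replicate 1 of 2010 was, and the lower count was 10 without weedy replicate 1 of 2011. Single receptors differed sharply with little spread within a season. Glyma16g33590, a TIR-type receptor, had log2 levels of 3.36 and 3.26 in weedy and 3.34 and 3.43 in control libraries of 2011, against 1.00 and 0.91 in weedy and 0.68 and 0.80 in control libraries of 2010, and between 0.58 and 0.77 in 2008 and 2009. Its difference was 2.50 (SE 0.11, adjusted p = 5.13e-05), and in the opposite direction Glyma03g04530 fell by 1.82 (SE 0.10, adjusted p = 0.000206). Of 51 chitinases, glucanases and pathogenesis-related proteins, which attack microbial walls, 16 were higher and 9 lower; the higher count was 5 without weedy replicate 1 of either season and 6 without weedy replicate 2 of 2011. Chitinase A (Glyma16g28970) averaged 4.48 ± 0.23 in 2011 and 2.60 ± 0.49 in 2010, while of 3 copies of PR4 1 was called higher, by 0.83, and 1 lower, Glyma19g43460, by 1.70 (SE 0.28, adjusted p = 0.00627). WRKY factors, regulators of defence, had 8 of 83 higher (9.64%) and 16 lower (19.3%), against 17.6% and 18.5% of all genes; the lower count was 6 without weedy replicate 1 of 2010, and it was 9 without weedy replicate 1 or 2 of 2011. Of 16 germins, secreted proteins of which some make hydrogen peroxide, 8 were higher and 1 lower, and the higher count was 5 without weedy replicate 1 of either season. Of 33 genes in the list of protease inhibitors, some of which act against the gut enzymes of insects, 8 were higher and 2 lower. Among the 33 were 2 copies of PGIP1, which inhibits polygalacturonases, neither of them called. The higher count was 4 without weedy replicate 1 of either season or without control replicate 1 of 2011, and 5 without weedy replicate 2 of 2011 or control replicate 1 of 2010. The kunitz trypsin inhibitor Glyma01g11870 averaged 6.96 ± 0.47 in 2011 and 4.75 ± 1.17 in 2010.

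Wall genes had more higher than lower members in 2011. Of 68 expansins and xyloglucan enzymes 25 were higher (36.8%) and 4 lower (5.88%). Of 87 cellulose synthases, laccases and fasciclin-like proteins 35 were higher (40.2%) and 4 lower (4.60%). Of 118 pectin lyases and esterases 43 were higher (36.4%) and 14 lower (11.9%), against 17.6% and 18.5% of all genes. The medians were 0.20, 0.28 and 0.41, and the higher counts stayed between 19 and 25, 26 and 35, and 30 and 49 with any one library left out. Expansin EXPA1 (Glyma18g49570) had log2 levels of 5.78 and 5.88 in weedy and 5.62 and 5.23 in control libraries of 2011, against 3.63 and 2.66 in weedy and 3.83 and 2.37 in control libraries of 2010, a difference of 2.50 (SE 0.24, adjusted p = 0.00161). Of its 5 copies 4 were called higher. All 4 copies of XTH16 (a xyloglucan endotransglucosylase) rose by 0.67 to 1.83, and all 4 copies of CesA2, a cellulose synthase of the growing wall, by 0.67 to 0.80. Laccase LAC11 (Glyma01g37930), an enzyme of lignin polymerisation, averaged 2.91 ± 0.30 in 2011 and 0.91 ± 0.29 in 2010. In the pectin list Glyma09g36640, an invertase or pectin methylesterase inhibitor, averaged 2.79 ± 0.46 in 2011 and 0.69 ± 0.54 in 2010. Against this trend, the xyloglucan enzyme Glyma05g23170 fell by 2.60 (SE 0.55, adjusted p = 0.0124), with a level in weedy replicate 2 of 2010 (5.03) well above the other 2010 libraries (2.19 to 2.52). The lower count of the pectin list was 5 without either weedy library of 2011 or replicate 1 of either control or weedy plots of 2010, and 8 without control replicate 1 of 2011. The lower count of the cellulose and laccase list was 15 without control replicate 2 of 2010 or of 2011. It was 2 without weedy replicate 2 of 2011 or without control replicate 1 of either season.

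Hormone genes divided by family. Of 94 SAUR genes, early targets of auxin, 24 were higher (25.5%) and 7 lower (7.45%), with a median of 0.28. Over all genes the shares were 17.6% and 18.5%. The SAUR higher count was 13 without weedy replicate 1 of 2010. It was 14 and 15 without weedy replicates 1 and 2 of 2011. The list of Aux/IAA repressors, ARF factors, GH3 enzymes and auxin transporters was even, with 25 of 119 higher (21%) and 22 lower (18.5%); the higher count was 15 without weedy replicate 1 of either season, and the lower count 14 without that of 2011. Within it, all 4 copies of the repressor IAA14 rose, by 1.45 to 1.98, and both copies of MONOPTEROS (MP), an ARF that patterns veins, fell. IAA14 copy Glyma20g35270 averaged 4.36 ± 0.54 in 2011 and 2.38 ± 0.51 in 2010. MP copy Glyma17g37580 averaged 1.87 ± 0.50 in 2011 and 4.01 ± 0.51 in 2010, a difference of -2.15 (SE 0.32, adjusted p = 0.00468). Of 25 gibberellin genes 10 were higher (40.0%) and 6 lower (24.0%). Both copies of GA3OX1, which makes the active hormone, rose: Glyma15g01500 averaged 3.10 ± 0.36 in 2011 and 1.04 ± 0.35 in 2010. Of 4 copies of GA2OX8, 2 were called higher and none lower, and of 5 copies of AT5G14920, 4 were lower and none higher. What these calls mean for the active hormone was not tested. The lower count of that list was 1 without weedy replicate 1 of either season and 2 without weedy replicate 2 of 2011. Cytokinin oxidase CKX3 (Glyma17g06220), which degrades cytokinin, averaged 1.85 ± 0.49 in 2011 and 3.53 ± 0.28 in 2010. The 46 cytokinin genes as a whole gave 7 higher and 10 lower, shares of 15.2% and 21.7%. With a library left out the higher count was 2 to 4 in 6 of the 8 fits (2 without replicate 1 of either control or weedy plots of 2010, 3 without either weedy library of 2011, 4 without either control library of 2011). The lower count was 2 and 6 without weedy replicates 1 and 2 of 2011, 4 without weedy replicate 1 of 2010 and 5 without control replicate 1 of 2011. Of 96 AP2 and ethylene response factors, a list that holds the ANT copies, 35 were lower (36.5%) and 9 higher (9.38%). The median was -0.31. The lower count was 18 without weedy replicate 1 of 2011, and it was 23 without weedy replicate 2 of 2011 or weedy replicate 1 of 2010. RAP2.2 (Glyma19g45200), a regulator of low-oxygen responses in Arabidopsis, averaged 3.28 ± 0.06 in 2011 and 5.37 ± 0.13 in 2010, a difference of -2.09 (SE 0.09, adjusted p = 5.13e-05).

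Of 56 enzymes that remove active oxygen 26 were called higher in 2011 (46.4%), 2 lower (3.57%) and 28 neither, with a median of 0.35. The shares over all genes were 17.6% and 18.5%. SODA, FSD2, APX1, GPX3, GPX4 and PRXIIF had no copy called. The higher count was 14 without weedy replicate 1 of 2011, 15 without weedy replicate 1 of 2010, 16 without weedy replicate 2 or control replicate 1 of 2011, and 17 without control replicate 1 of 2010. Besides the 1 called copy of CSD1, glutathione peroxidase GPX6 (Glyma01g42840) averaged 6.11 ± 0.11 in 2011 and 4.15 ± 0.49 in 2010. Peroxisomal catalase CAT2 (Glyma06g02040) averaged 8.43 ± 0.27 in 2011 and 6.88 ± 0.35 in 2010. Of 58 glutathione transferases, which attach glutathione to toxins and to many herbicides, 19 were higher (32.8%) and 8 lower (13.8%), with a median of 0.12. GSTU19 (Glyma15g40250) had log2 levels of 4.45 and 4.59 in weedy and 4.42 and 4.39 in control libraries of 2011, against 2.72 and 3.13 in weedy and 3.05 and 2.80 in control libraries of 2010. The 4 libraries of 2011 thus lay close together, and the season difference was 1.54 (SE 0.12, adjusted p = 0.000648).

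Nitrogen and carbon metabolism had more higher than lower genes. For nitrogen 17 of 53 were higher (32.1%) and 5 lower (9.43%). For starch, sucrose and trehalose 30 of 89 were higher (33.7%) and 6 lower (6.74%), against 17.6% and 18.5% of all genes. The nitrogen higher count was 10 without weedy replicate 1 of 2011. For starch, sucrose and trehalose it was 15 and 18 without weedy replicates 1 and 2 of 2011. Without control replicate 1 of 2011 it was 16, and without that of 2010 it was 17. Nitrate reductase (Glyma14g33480), the first enzyme of nitrate use, had log2 levels of 1.82 and 2.93 in weedy and 2.03 and 1.63 in control libraries of 2011, against 0.08 and 0.00 in weedy and 0.02 and 0.19 in control libraries of 2010, while both libraries of 2008 were near 6, at 5.97 and 6.0. All 3 copies of plastid glutamine synthetase GS2, which captures ammonium, were called higher, with a median of 1.11. A beta-amylase (Glyma06g45700), of a family that degrades starch, averaged 6.48 ± 0.18 in 2011 and 4.35 ± 0.39 in 2010. In contrast, BMY3 (Glyma15g10480), another beta-amylase, fell by 1.11 (SE 0.21, adjusted p = 0.00920).

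The remaining lists had no common direction, or few calls. Of 47 aquaporins, the water channels, 8 were higher and 8 lower (17% each), with members that moved apart: PIP2A (Glyma03g33800) averaged 4.82 ± 0.46 in 2011 and 2.76 ± 0.61 in 2010, and a copy of PIP1;4 (Glyma01g42950) averaged 5.70 ± 0.42 in 2011 and 7.18 ± 0.31 in 2010. Of the 8 copies of PIP1;4, 2 were called higher and that 1 lower, with a median of 0.27. The aquaporin higher count was 5 without any one weedy library. Among 67 genes of abscisate and dehydration, 4 were higher (5.97%) and 7 lower (10.4%), against 17.6% and 18.5% over all genes; the higher count was 1 without weedy replicate 1 of either season or control replicate 1 of 2011. Phenylpropanoid and flavonoid enzymes had 16 of 72 higher and 10 lower, with a median of 0.04. Their largest rise, that of spermidine hydroxycinnamoyl transferase SHT (Glyma13g04220), which joins phenolic acids to polyamines, was to 3.68 ± 0.25 in 2011, against 0.76 ± 0.29 in 2010. The phenylpropanoid higher count was 5 when weedy replicate 1 of 2011 was dropped and 8 when weedy replicate 1 of 2010 was. Of 60 iron and metal genes 14 were higher and 12 lower. These counts were 7 and 7 without weedy replicate 1 of 2011 and 8 and 6 without weedy replicate 1 of 2010, and the lower count was 7 without weedy replicate 2 or control replicate 1 of 2011. Of 64 lipid transfer proteins 16 were higher and 11 lower, with a lower count of 6 without weedy replicate 1 of 2011, and of 7 without its replicate 2 or control replicate 1 of that year.

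**Figure D4:**
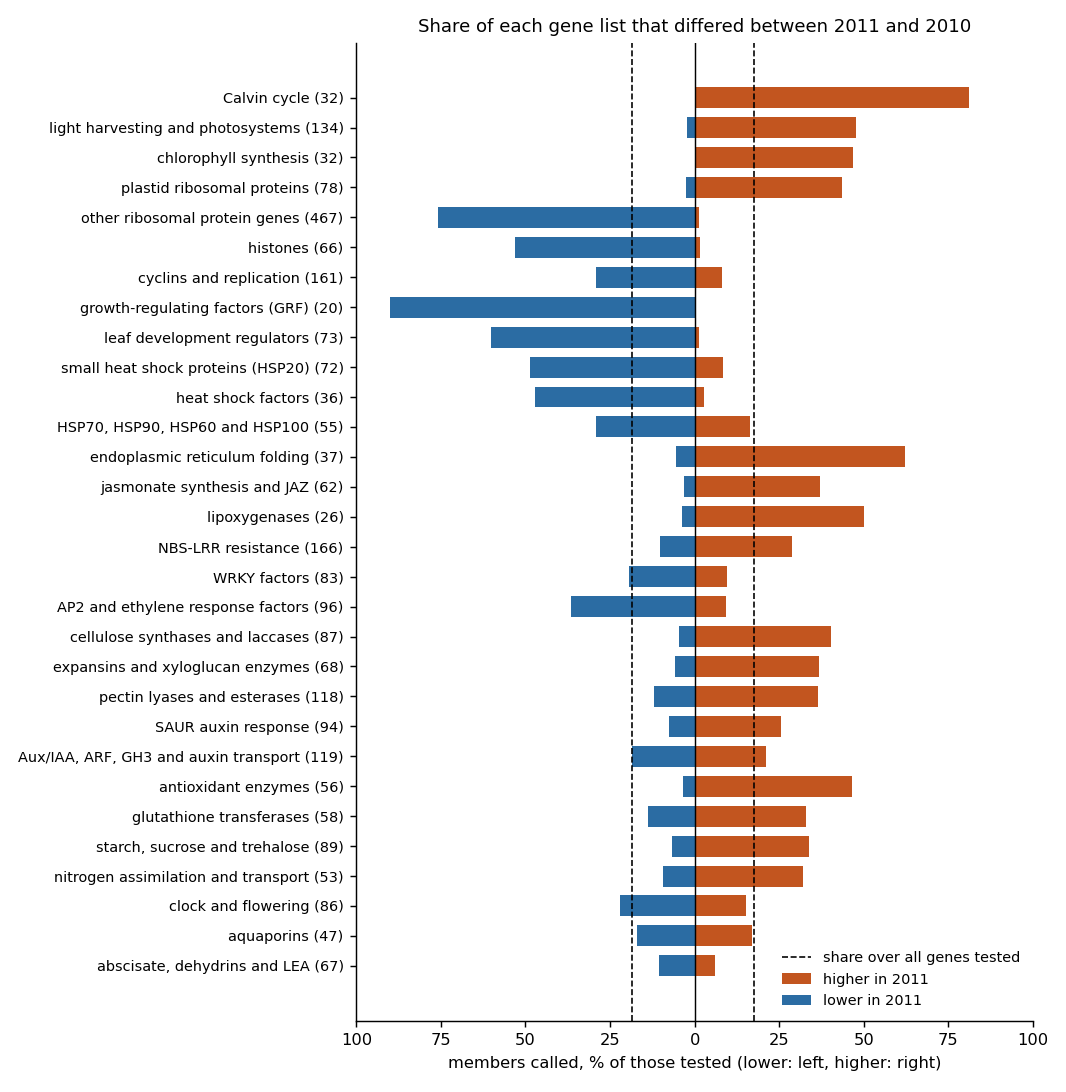
Share of the tested genes of each list that was called higher (to the right) or lower (to the left) in 2011, in percent, with the number tested in brackets and dashed lines at the shares over all genes, 17.6% and 18.5%. The Calvin cycle (81.2% higher), GRF (90% lower) and other ribosomal protein genes (75.8% lower) have the longest bars, and clock and aquaporins lie near the lines and abscisate inside them.

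The season difference was also fitted within each treatment. In weedy plots 10807 genes were called and in control plots 2509, with 2 libraries a season in each. The median differences of photosynthesis lists were larger in weedy than in control plots: 1.70 and 0.54 for the Calvin cycle, 1.01 and 0.21 for light harvesting, 0.99 and 0.21 for chlorophyll synthesis, and 1.00 and 0.21 for plastid ribosomal proteins. GRF genes had medians of -1.47 in weedy and -0.63 in control plots. Other ribosomal protein genes (-0.81 in weedy and -0.50 in control plots) and small heat shock proteins (-0.80 and -0.67) were closer, and for histones (-0.23 and -0.68) and endoplasmic reticulum folding (0.41 and 0.79) the control plots showed more. No gene passed the test of the difference between the treatments (0.0%; 0 genes in limma, smallest adjusted p = 0.214), with 4534 genes at an unadjusted p under 0.05. The genes of smallest p included polygalacturonase 2 (Glyma02g03960), a pectin-cleaving enzyme, whose season difference was 0.93 in weedy and -0.59 in control plots, a difference of 1.52 (SE 0.16, adjusted p = 0.214). For the lipid transfer protein Glyma05g04490 the season difference was -1.13 in weedy and 0.52 in control plots (adjusted p = 0.214). Without weedy replicate 2 of 2010, which leaves 1 weedy library of that season whose spread is assumed to equal that of the other groups, a single gene passed, the iron superoxide dismutase FSD1 (Glyma20g33880) of the chloroplast. It had 4.75 and 3.99 in weedy and 2.56 and 2.21 in control libraries of 2011, against 1.99 and 2.97 in weedy and 4.39 and 3.90 in control libraries of 2010, and in that fit the season difference in weedy plots exceeded that in control plots by 4.40 (SE 0.21, adjusted p = 0.0489).

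**Figure D5:**
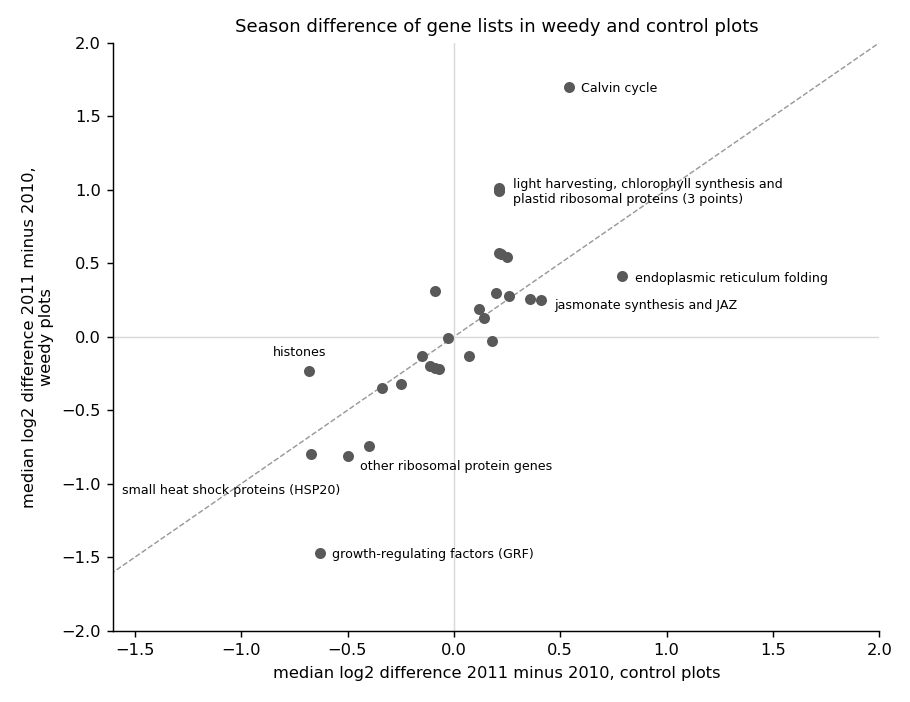
Median season difference of the gene lists in the bar chart, lipoxygenases left out, in weedy plots (vertical axis) against that in control plots (horizontal axis), both 2011 minus 2010 on the log2 scale, with the dashed line where they are equal. The photosynthesis lists lie above the line and GRF below it, and ER folding and histones are farther from 0 in control plots.

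The libraries of 2008 and 2009, 1 weedy and 1 control each, were set beside these differences. Of the 5345 genes higher in 2011, 1385 (25.9%) had all 2011 libraries outside the range of the other 3 seasons and 841 (15.7%) had all 2010 libraries outside the range of the rest. Of the 5601 lower genes these counts were 917 (16.4%) and 1879 (33.5%), against 8.82% and 10.2% of all genes tested. Calvin cycle and light harvesting medians were above the 2011 range in 2008: relative to the gene means of 2010, the Calvin cycle median was 2.02 and 1.87 in weedy and control libraries of 2008, 0.72 and -0.10 in 2009, and between 0.62 and 1.68 in 2011. GRF genes ran in the reverse order, at -1.95 and -1.76 in 2008, -0.03 and -0.31 in 2009 and between -1.42 and -0.75 in 2011. Endoplasmic reticulum folding was lowest in 2008, at -1.21 and -1.09. It was at 0.01 in the weedy and 0.45 in the control library of 2009, and between -0.23 and 0.32 in 2010. In 2011 it was at 0.39 and 0.16 in weedy libraries, below the control library of 2009, and at 0.91 and 0.94 in control libraries. Small heat shock proteins were below the 2010 range in 2008 and 2011 and in the weedy library of 2009, at -0.96 and -0.92 in 2008, -0.66 and -0.02 in 2009 and between -0.90 and -0.31 in 2011.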

How the data were processed

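Per the labels' protocols, Trizol-extracted RNA was cleaned on columns, made into TruSeq libraries and sequenced in paired ends on a HiSeq2000. The authors deposited a single table of log2 FPKM values with Phytozome annotation, per the file headers, and TopHat, Cufflinks and Cuffdiff, at version 1.0 each, are listed in the submitters' processing notes. The table also holds log2 fold changes and p-values of weedy against control plots, as deposited by the authors, which were not used. Genome build, strand setting, any number added before the log and the handling of reads from near-identical genes are not given in the sources used here, so overlapping, antisense and near-identical genes may share reads. Values ran from 0.00 to 13.50 with 10 zeros a library, and the sorted values of the 12 libraries were identical. The reference gene table matched 0 identifiers. Gene names therefore come from the deposited table, which gives an Arabidopsis locus for 29874 entries, and no sequence is shown.

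Of 30498 entries, 39 that shared 19 gene identifiers were left out. Genes reaching log2 1 in 3 or more of the 8 libraries were kept, which removed 141 and left 30318. Season, treatment and row spacing entered a limma 3.58.1 model in R 4.3.3 (trended, robust eBayes; statmod 1.5.0), with Benjamini-Hochberg adjustment over all genes and a threshold of 0.05, two-sided. A second fit added the interaction of season with treatment and gave the differences within treatments. Row spacing came from label text that names the reads of each sample. Called higher or lower means past this threshold. Each fit was tested on made-up data with known changes.

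The 52 gene lists were joined by Arabidopsis locus or by words in the descriptions. The lists and comparisons were chosen with earlier results of these data known, and several patterns were corrected and the family and plastid lists added after a first count. Genes named are the 12 largest rises and falls with separate seasons and a mean of at least 3 in the higher season, up to 3 rises and falls per list with a mean of at least 2, Arabidopsis loci whose 4 or more copies were all called in 1 direction, and the genes of smallest interaction p. Other copies and genes outside this rule were named after their values were seen. Alternatives were the covariates, the filter, an added 1, a per-million scale, all 12 libraries, a minimum difference and leaving out each library.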

Additional observations from a re-analysis of the deposited data

Results flagged for a closer look

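In 6 of the 168 sets of 4 libraries tested, the highest or lowest library stood apart from the other 3 by more than Dixon's critical share of the range, while chance gives about 1 in 20. In 2011, control replicate 1 was the highest of its season for the small heat shock proteins Glyma08g07340 (3.52) and Glyma07g32110 (2.91) and for Glyma03g12150 (0.29), and the lowest for Glyma01g34300 (6.57). Control replicate 2 of 2011 was the highest for Glyma12g18710 (1.13). In 2010, control replicate 1 had the highest median level of the jasmonate and JAZ list (4.11). The 5 genes had been picked among genes whose seasons did not overlap, so the library lay outside the range of the other season by that choice. The list median of 4.11 in 2010 lay above all 4 libraries of 2011 (3.96 to 4.09), although 23 of the list's 62 genes were called higher in 2011.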

How the results depend on the processing

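The count of genes that differed, 10946, was between 9018 and 12515 under every alternative that kept the 8 libraries or added the 4 others, without a minimum difference. With a minimum difference of 1 on the log2 scale it was 1760, with 968 higher and 792 lower. Leaving out 1 library gave 5432 to 10400 genes, 2618 to 5253 higher and 2814 to 5147 lower, and the interaction gave 0 to 1. Replicate numbers did not pair the samples (correlations of -0.17 to 0.34): without the replicate block of row spacing the count was 11306, and with a replicate block of treatment by row spacing it was 9018. List medians that moved by more than their spread were, with a mean log2 value of at least 2, -0.34 for secondary wall cellulose synthases, 0.84 for lipoxygenases and 1.27 for germins, while the KNOX list kept no member. With 1 library left out they were 0.26 to 0.48 for SAUR, 0.13 to 0.30 for chitinases and PR proteins, -0.17 to 0.01 for lipid transfer proteins, 0.35 to 0.69 for lipoxygenases and 0.16 to 0.31 for peroxidases. No called result reversed, and the cause of these shifts was not tested. Fits without a library also had fewer residual degrees of freedom. Unknown depth, 1 site and 1 sampling date a season limit all values.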
